A study of Mus musculus with 12 samples.

Results

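Neurotrophin signalling was followed through 3 genes linked to osteoarthritis pain: Ngfr (ENSMUSG00000000120), Bdnf (ENSMUSG00000048482) and Sort1 (ENSMUSG00000068747). They were found by symbol among the 57010 Ensembl gene IDs of each library. All 3 were present and passed the expression filter, which left 14253 genes. RNA was taken from cultured mouse chondrocytes of wild-type genotype, the cells that build cartilage matrix. There were 4 libraries labelled Control, 4 labelled WT after transfection of a wild-type plasmid, and 4 labelled SIRT5F101L after transfection of the mutant plasmid. SIRT5 is a sirtuin of mitochondria that strips acidic acyl marks such as succinyl and malonyl from proteins. The labels do not name the gene on the WT plasmid. The labels give no strain, age or sex for the mice or cells. They do not say which culture each library came from or what the control cells received.

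Neurotrophins are secreted as precursors that proteases cut to the mature form. Mature brain-derived neurotrophic factor (Bdnf) and its relatives act through Trk receptor kinases, each with a preferred ligand, and all bind the p75 receptor encoded by Ngfr. Sortilin (Sort1), a sorting receptor of the VPS10 domain family, joins p75 in binding the uncut precursors and also carries cargo between the Golgi and endosomes. In joints, neurotrophins act on the fibres that sense pain. Bdnf, carried by sensory neurons, is known for raising pain transmission in the spinal cord.

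Libraries held 15095357 to 24242139 counts. All 10 chondrocyte markers examined were tested and detected, and their summed level was 9144 to 11456 CPM (counts scaled by TMM to a common library size) in Control, 2816 to 2929 in WT and 2295 to 2540 in SIRT5F101L. Most of the sum was Col2a1 (6719, 1665 and 1312 CPM on average). In WT 2 of the 10 rose and 8 fell, and in SIRT5F101L 1 rose and 8 fell, with Acan at 133, 185 and 143 CPM, where 28.7% of all tested genes rose and 28.1% fell in WT and 30% and 30.7% in SIRT5F101L. Sirt5 itself had 9 to 16 counts in Control libraries, 1 to 9 in WT and 9 to 19 in SIRT5F101L, so no rise with either plasmid was detectable, and groups are named by their labels throughout. All 2414 IDs on the X chromosome were listed at 0 in every library. SIRT5F101L replicate 1 lay apart from its group on the second principal component, at 20.3 against -23.5 to -17.0, and beside WT replicates 2 to 4 (12.5 to 20.1). WT replicate 1 lay between them, at -1.07. Nothing in the labels says that libraries came from separate cultures, so p-values measure the spread between libraries, which may be technical.

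Against Control, Bdnf rose while Ngfr and Sort1 fell, in libraries labelled WT and in those labelled SIRT5F101L alike. Bdnf was 3.75-fold and 3.82-fold higher, Ngfr 1.88-fold and 1.65-fold lower, and Sort1 1.54-fold and 1.57-fold lower. Each of these 6 differences passed edgeR's quasi-likelihood test at a Benjamini-Hochberg adjusted p under 0.05, and in none did the groups overlap. Calls were common, however. In WT against Control 56.8% of the 14253 tested genes were called, 28.7% higher and 28.1% lower, and 53.5% showed no overlap. In SIRT5F101L against Control 60.7% were called, 30% higher and 30.7% lower, and 51.3% showed no overlap. Calls for 3 of 3 genes are to be read against these shares, and the description rests on the size of the changes rather than on their count. Both comparisons share the same Control libraries.

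**Figure D1:**
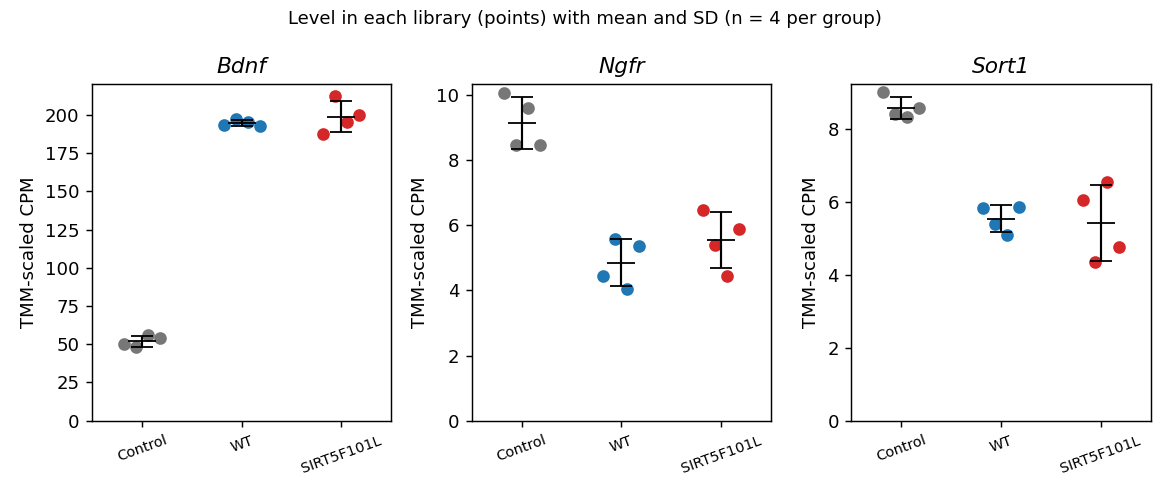
TMM-scaled CPM of Bdnf, Ngfr and Sort1 (vertical axes, each starting at 0) in the 4 libraries of each group (points), with the group mean and SD (bars). Bdnf lies higher in all plasmid libraries than in any Control library, and Ngfr and Sort1 lie lower.

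Bdnf, the ligand among the 3 genes, had the highest level per length of the 3. Control replicates 1 to 4 held 865, 945, 1051 and 987 counts of it, which gave 50.3, 47.9, 56.0 and 53.9 CPM. In WT libraries the level was 194, 198, 195 and 193 CPM, from 3926, 3081, 3382 and 3752 counts. In SIRT5F101L it was 188, 212, 196 and 200 CPM, from 3514, 3268, 4878 and 3529 counts. Every plasmid library thus lay more than 3 times above every Control library, and the plasmid groups lay on top of each other. The means were 52.0 ± 3.62 CPM in Control, 195 ± 2.06 in WT and 199 ± 10.2 in SIRT5F101L (SD, n = 4 libraries each). By edgeR, Bdnf rose in WT by a log2 fold change of 1.91 (SE 0.06, adjusted p 8.11e-16). In SIRT5F101L the rise was 1.94 (SE 0.06, edgeR adjusted p 6.20e-16). Only 3.49% of tested genes had a higher log2 fold change in WT, and 3.53% in SIRT5F101L.

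The spread of Bdnf within WT was 1.06% of the mean, below the 1.68% that counting error alone gives at this depth, whereas it was 5.15% in SIRT5F101L and 6.96% in Control. SIRT5F101L replicate 1 was the lowest of its group and replicate 2 the highest. Between the plasmid groups Bdnf differed by 0.03 on the log2 scale (95% interval -0.09 to 0.15, edgeR adjusted p 0.866). That interval reaches a difference of 1.11-fold at most. Its groups overlapped there, as did those of all but 4.02% of tested genes.

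Transcription of Bdnf starts at several places, and counts per gene sum over all of them. The supplied RefSeq promoter table (GRCm38.p6) holds 7 start windows for Bdnf, 1 for Ngfr and 0 for Sort1. The stretches of 250 bases before each Bdnf start were searched on both strands for TGACG, the core of the cyclic AMP response element (CRE), for TGANTCA, the AP-1 site, and for GGGCGG, the GC box. No match printed here overlaps another. Crem, a CRE-binding factor, is followed further on, and the AP-1 site and the GC box are motifs of many promoters. A part of Crem in the level of Bdnf was not tested. The CRE core was found in 1 of the 7 Bdnf stretches, the AP-1 site in 1 and the GC box in 2. Of all 32851 windows searched in the same way, 17.8%, 6.75% and 32.7% hold them. A match is a description of the letters, not evidence of binding. Both stretches shown here are on the plus strand, 5′ to 3′, with matches on either strand in capitals (CGTCA and CCGCCC are the reverse complements of the CRE core and the GC box). The CRE core begins 35 bases before the start in the first, and the AP-1 site 152 bases before it in the second, followed by GC boxes at 61 and 43 bases.
Bdnf chr2:109692186-109692435: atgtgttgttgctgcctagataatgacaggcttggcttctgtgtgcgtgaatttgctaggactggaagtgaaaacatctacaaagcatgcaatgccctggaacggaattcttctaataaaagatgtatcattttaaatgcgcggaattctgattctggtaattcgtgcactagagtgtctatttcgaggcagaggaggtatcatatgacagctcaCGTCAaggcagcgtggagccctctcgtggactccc
Bdnf chr2:109676782-109677031: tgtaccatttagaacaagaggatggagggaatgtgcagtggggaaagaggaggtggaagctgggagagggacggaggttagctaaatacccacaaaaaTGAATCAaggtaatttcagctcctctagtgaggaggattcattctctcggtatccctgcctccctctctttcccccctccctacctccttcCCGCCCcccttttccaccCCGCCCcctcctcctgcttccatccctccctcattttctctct

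The gene annotation used for lengths places an antisense gene, Gm45346, over 14.4% of Bdnf exon bases. Gm45346 had 0 to 11 counts per library, against at least 865 for Bdnf, so reads assigned to it were few beside those of Bdnf. Whether the authors' counting used strand is not given in the sources used here, and reads from the shared bases cannot be assigned to either gene without it.

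Ngfr, which encodes the p75 receptor and is also used as a marker of mesenchymal stromal and glial cells, fell in both plasmid groups. Control libraries held 173, 167, 180 and 155 counts, or 10.1, 8.47, 9.59 and 8.47 CPM. WT libraries held 90, 87, 70 and 104 counts, or 4.44, 5.58, 4.04 and 5.35 CPM. SIRT5F101L libraries held 121, 83, 111 and 104 counts, or 6.47, 5.39, 4.45 and 5.89 CPM. The lowest Control library exceeded the highest plasmid library, SIRT5F101L replicate 1, while the plasmid groups overlapped. Means were 9.14 ± 0.803 CPM in Control, 4.85 ± 0.730 in WT and 5.55 ± 0.855 in SIRT5F101L (SD, n = 4). WT thus stood at 53.1% and SIRT5F101L at 60.7% of the Control mean.

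By edgeR the log2 fold change of Ngfr was -0.91 (SE 0.15, adjusted p 2.21e-05) in WT and -0.72 (SE 0.14, adjusted p 0.000213) in SIRT5F101L. Lower log2 fold changes were found for 8.87% and 13.2% of tested genes. The difference between the plasmid groups, 0.19, was smaller than its 95% interval (-0.13 to 0.51, edgeR adjusted p 0.607). A difference of up to 1.42-fold between them lies within that interval. Within groups the spread of Ngfr was 8.78% to 15.4% of the mean, of which counting error gives 7.70% to 10.7%.

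The start window of Ngfr in the same RefSeq table is shown for comparison with those of Bdnf. The 213 bases of it that lie outside the annotated transcript held 3 GC boxes, beginning 77, 35 and 26 bases before the end of the printed stretch, no CRE core and no AP-1 site. The stretch is on the minus strand, 5′ to 3′, with the GC boxes in capitals.
Ngfr chr11:95587736-95587948: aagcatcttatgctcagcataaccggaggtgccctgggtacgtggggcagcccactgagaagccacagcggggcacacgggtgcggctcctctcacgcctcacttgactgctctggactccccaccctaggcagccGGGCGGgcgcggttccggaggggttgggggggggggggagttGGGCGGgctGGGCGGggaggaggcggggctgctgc

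Because Ngfr also marks glia, markers of peripheral glia were followed beside it. Of 9 such genes 7 were tested, and the summed level was 14.2 to 16.5 CPM in Control, 11.6 to 13.6 in WT and 11.8 to 14.1 in SIRT5F101L. In each comparison 1 of the 7 rose, Sox10, from 0.376 ± 0.0564 CPM to 0.975 ± 0.571 and 0.842 ± 0.400, and 1 fell in WT and 2 fell in SIRT5F101L. Of 9 tested leukocyte markers 8 fell and 1 rose in each comparison, with summed levels of 197 to 230 CPM in Control, 135 to 157 in WT and 146 to 187 in SIRT5F101L. The 1 that rose, Cd14, is part of these sums and went from 12.4 CPM in Control to 51.3 in WT and 59.8 in SIRT5F101L. Fibroblast markers, which sum to 19029 to 22464 CPM in Control and 8925 to 10025 over the plasmid libraries, went both ways, 4 rising and 5 falling among 9 tested in each comparison. Neuron markers summed to 34.2 to 40.3 CPM in Control and 10.7 to 17.4 over the plasmid libraries. Of 4 tested, 1 rose and 2 fell in each comparison, with Stmn2 at 30.4, 6.49 and 5.52 CPM in Control, WT and SIRT5F101L and Tubb3 at 1.87, 7.45 and 6.06 CPM. Endothelial and pericyte markers summed to 270 to 356 CPM in Control and 457 to 593 over the plasmid libraries, most of it Cspg4 (297 ± 37.5 CPM in Control, 536 ± 35.0 in WT and 468 ± 36.7 in SIRT5F101L). Of 8 tested, 2 rose in WT and 3 in SIRT5F101L and 0 fell, and the endothelial marker Pecam1 was at 1.07, 0.679 and 0.647 CPM. These marker counts stand beside 56.8% of all tested genes called in WT and 60.7% in SIRT5F101L. Sox10, Syt1 and Dpt passed the expression filter only through the libraries where they were high, so the counts are not independent of the filter. The neuron marker Syt1 was at 3.57, 0.0766 and 0.175 CPM in Control, WT and SIRT5F101L. The fibroblast marker Dpt was at 1.16, 0.0391 and 0.0301 CPM. The part of these cells in the level of Ngfr, Bdnf or Sort1 was not tested. In these bulk libraries fewer cells of a type and less RNA per cell cannot be told apart.

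Sort1, the sorting receptor, also fell in both plasmid groups. It had 155, 166, 156 and 157 counts in Control libraries (9.0, 8.42, 8.31 and 8.58 CPM). WT libraries had 118, 84, 88 and 114 counts (5.82, 5.39, 5.08 and 5.86 CPM), and SIRT5F101L libraries 113, 67, 163 and 84 (6.04, 4.35, 6.54 and 4.76 CPM). The lowest Control library lay above every plasmid library. Within SIRT5F101L replicates 1 and 3 were high and replicates 2 and 4 low, and together they spanned the whole WT range. Means were 8.58 ± 0.306 CPM in Control, 5.54 ± 0.372 in WT and 5.42 ± 1.03 in SIRT5F101L (SD, n = 4), or 64.6% and 63.2% of Control.

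The log2 fold change of Sort1 was -0.63 in WT and -0.65 in SIRT5F101L (SE 0.14 for both; edgeR adjusted p 0.000605 and 0.000396), with lower log2 fold changes in 14.6% and 15.2% of tested genes. Between the plasmid groups it differed by -0.02 (95% interval -0.31 to 0.28, edgeR adjusted p 0.969). The spread of Sort1 within SIRT5F101L was 19.1% of the mean, against 9.68% from counting error, while in Control and WT it was 3.57% and 6.72%, below counting error. An antisense gene, Gm12523, covers 4.47% of its exon bases and was listed at 0 in all libraries. Without SIRT5F101L replicate 1, the library that stood apart, the changes in SIRT5F101L against Control were 1.96 for Bdnf, -0.81 for Ngfr and -0.69 for Sort1, each still called by edgeR.

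Levels of different genes were compared per length, as CPM per kilobase (kb) of the longest annotated transcript, so genes with long untranslated ends read low on this scale. In Control, Bdnf stood at 12.2 ± 0.849 CPM per kb, Ngfr at 2.65 ± 0.233 and Sort1 at 1.25 ± 0.0447 (SD, n = 4), above 66.1%, 34.4% and 23.9% of tested genes with a length. With the WT plasmid, Bdnf reached 45.7 ± 0.482 CPM per kb, above 89.7% of genes, and with SIRT5F101L 46.6 ± 2.40, above 90.2%. Ngfr moved down to 25% and 26.3% and Sort1 to 18.2% and 17.7% on the same ranking. The order Bdnf, Ngfr, Sort1 was the same in all groups, and within each group no library of one gene overlapped with those of the next.

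The ratio of ligand to receptor message was also taken within each library. In Control, Bdnf had 4.04 to 5.14 times the counts per kb of Ngfr, with a median of 4.64. That ratio was 28.6 to 39.0 in WT (median 32.2) and 23.5 to 35.5 in SIRT5F101L (median 29.6). Bdnf over Sort1 went from 8.94 to 10.8 in Control to 52.7 to 61.6 in WT and 48.0 to 78.2 in SIRT5F101L. Neither ratio overlapped between Control and plasmid libraries, while both overlapped between the plasmid groups. Ngfr over Sort1, with 1.96 to 2.29 in Control, 1.51 to 2.05 in WT and 1.35 to 2.46 in SIRT5F101L, overlapped in all groups. The ratios restate the levels of the genes given already and carry no test.

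**Figure D2:**
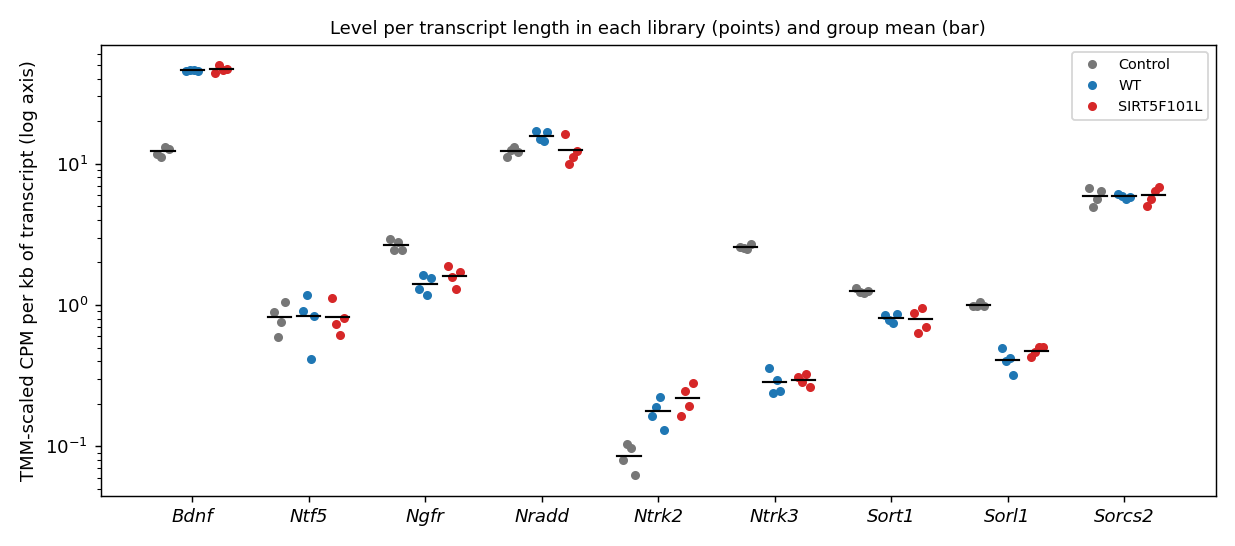
Level of neurotrophin ligands, receptors and VPS10 receptors as TMM-scaled CPM per kb of the longest transcript (log axis) in each library (points), with group means (bars). Bdnf is the highest of the 3 genes in every group, at 12.2 CPM per kb in Control and 45.7 and 46.6 in the plasmid groups.

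To place Bdnf, Ngfr and Sort1 in their pathway, further ligands and receptors were examined. Of 9 such genes, 7 were tested. In WT 2 rose and 2 fell, and in SIRT5F101L 1 rose and 2 fell, against 28.7% and 28.1%, and 30% and 30.7%, of all tested genes. Their median log2 fold change was 0.01 and 0.02, beside -0.01 and -0.02 over all genes.

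The further ligands were scarce. Ntf5, also called neurotrophin-4, a second ligand of TrkB, had 14 to 41 counts per library and log2 fold changes of 0.01 and -0.02 (edgeR adjusted p 0.975 and 0.966). Ntf3, neurotrophin-3, had 1 to 6 counts and lay below the expression filter.

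The 2 Trk receptors examined, Ntrk2 and Ntrk3, moved in opposite directions. Ntrk3, which encodes TrkC, the receptor for neurotrophin-3, dropped from 866, 981, 923 and 981 counts in Control to 143, 73, 101 and 95 in WT and 114, 86, 159 and 92 in SIRT5F101L. Its level was 50.7 ± 1.98, 5.61 ± 1.08 and 5.82 ± 0.518 CPM, and the log2 fold changes were -3.16 and -3.11 (SE 0.11 for both; edgeR adjusted p 2.36e-15 and 2.46e-15). It was 8.97-fold lower in WT and 8.66-fold lower in SIRT5F101L, the largest fall among the 10 ligand and receptor genes tested here. Ntrk2, which encodes TrkB, the receptor for Bdnf, had 10 to 18 counts in Control, 22 to 34 in WT and 27 to 43 in SIRT5F101L. Its log2 fold changes were 1.02 and 1.34 (SE 0.30 for both; edgeR adjusted p 0.00713 and 0.000637), so it rose with Bdnf but from a low level, 0.752 ± 0.164 CPM in Control. Nradd, a relative of the p75 receptor, rose in WT (0.37, edgeR adjusted p 0.0124), and its change in SIRT5F101L was 0.02 (edgeR adjusted p 0.877). The difference between those groups, -0.35, had an edgeR adjusted p of 0.360. Without SIRT5F101L replicate 1 it was -0.50 and was called (edgeR adjusted p 0.00144).

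Among the VPS10 receptors, the relatives of Sort1, Sorl1 also fell. Sorl1, a sorting receptor known for its link to amyloid processing, went from 10.7 ± 0.345 CPM in Control to 4.39 ± 0.773 in WT and 5.10 ± 0.384 in SIRT5F101L, with log2 fold changes of -1.28 and -1.07 (edgeR adjusted p 7.95e-08 and 7.35e-07). Sorcs2, the most abundant of them per kb at 5.93 CPM per kb in Control, changed by -0.02 and 0.02, with 95% intervals of -0.23 to 0.20 and -0.20 to 0.23. Sorcs1 had 4 to 37 counts and levels 1.99-fold and 2.01-fold those of Control (edgeR adjusted p 0.140 and 0.127). Sorcs3 had 0 to 7 counts and lay below the filter too.

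**Figure D3:**
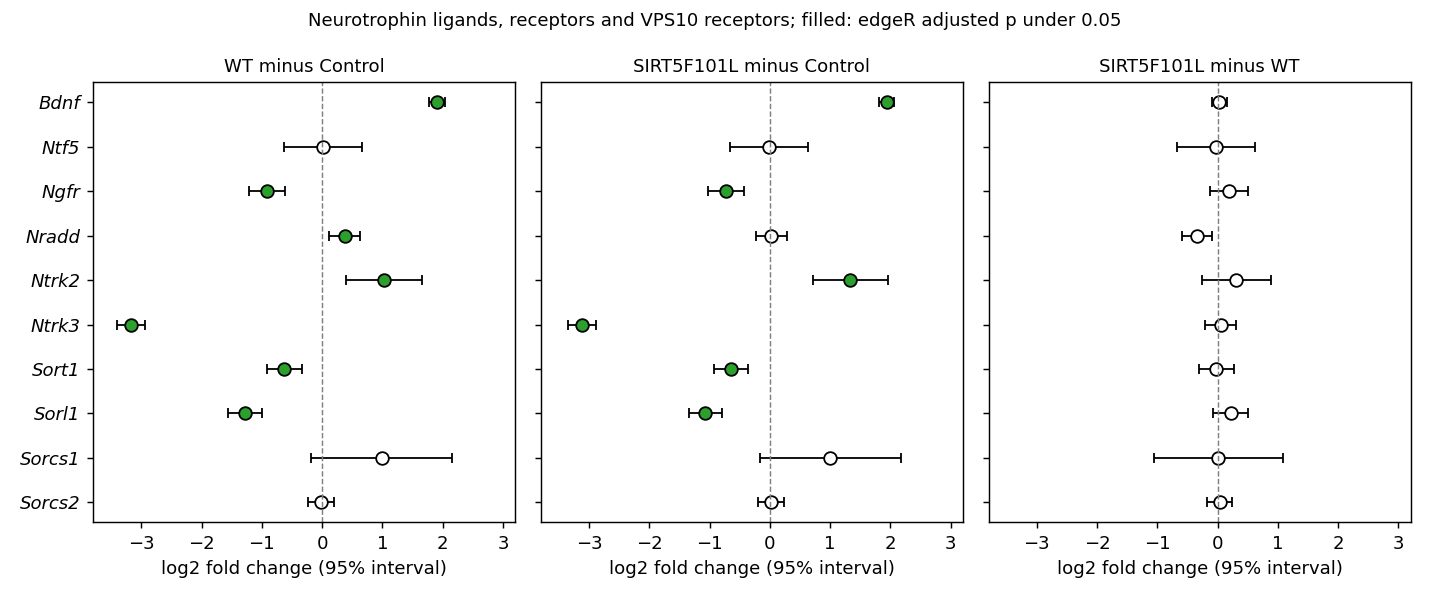
Log2 fold changes (horizontal axis) with 95% intervals of 10 tested ligands, p75 and Trk receptors and VPS10 receptors in the 3 comparisons. Filled points have an edgeR adjusted p under 0.05. Bdnf and Ntrk2 lie to the right and Ngfr, Ntrk3, Sort1 and Sorl1 to the left in both comparisons with Control, and no gene is filled between the plasmid groups.

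Enzymes that act on neurotrophin precursors, and inhibitors of such enzymes, came next in the pathway of Bdnf. Of 14 listed genes 11 were tested, 8 rose and 2 fell in each comparison with Control (90.9% called), beside 28.7% higher and 28.1% lower of all genes in WT and 30% and 30.7% in SIRT5F101L. Their median log2 fold changes were 1.48 and 1.36, beside -0.01 and -0.02 over all genes. Of the 10 called, Pcsk1 and Pcsk2 passed the expression filter only through the libraries where they were high, so the count is not independent of the filter. Pcsk2, a convertase of secretory granules, had 28 to 42 counts in Control libraries and 1 to 5 in plasmid libraries. Furin, which cuts precursors in the Golgi, rose from 117 to 209 and 192 CPM, by log2 fold changes of 0.84 and 0.71 (edgeR adjusted p 1.23e-09 and 1.33e-08). Mmp3, a protease that can cut precursors outside the cell, rose by 6.55 and 6.85 (edgeR adjusted p 3.28e-20 and 1.90e-20). Pcsk1, another convertase of these granules, had 1 count over the 4 Control libraries, 38 to 67 per library in WT and 47 to 119 in SIRT5F101L, so that its fitted fold change has no reliable size. Pcsk6, a related convertase, fell by 1.30 in WT and by 1.39 in SIRT5F101L (edgeR adjusted p 2.78e-09 and 9.94e-10).

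Partners of the p75 receptor changed in both directions. Of 15 listed genes 9 were tested, 4 rose and 3 fell in each comparison (77.8% called, beside 56.8% and 60.7% of all genes). Another 5 were listed at 0 in all libraries, of which 4 lie on the X chromosome, where no gene ID had a count. Ripk2, a kinase recruited by p75, rose by 0.82 and 0.93 (edgeR adjusted p 5.21e-10 and 7.16e-11), and the co-receptor Lingo1 by 0.44 and 0.54 (edgeR adjusted p 0.0322 and 0.00950). The call of Lingo1 in WT was lost without Control replicate 1 or 4 or WT replicate 2 or 3, with edgeR adjusted p from 0.0594 to 0.152. The Nogo receptor Rtn4r, which pairs with p75 in neurons, changed by -0.57 and -0.98 (edgeR adjusted p 0.000558 and 1.50e-06). Zfp110, a zinc finger protein that binds p75, changed by -0.64 and -0.67 (edgeR adjusted p 2.61e-06 and 1.22e-06).

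Adaptors and effectors that work downstream of Trk receptors followed. All 16 were tested, of which 8 rose and 2 fell in WT and 8 rose and 3 fell in SIRT5F101L, with medians of 0.34 and 0.33. The shares called, 62.5% and 68.8%, were near the 56.8% and 60.7% of all genes. Shc3 (6.01-fold and 6.88-fold, edgeR adjusted p 6.50e-08 and 1.75e-08) and Sh2b2 (2.83-fold and 2.85-fold, edgeR adjusted p 6.29e-09 and 5.23e-09) rose, the first from 0.576 CPM. Shc3 had 7 to 16 counts per Control library and passed the expression filter through the plasmid libraries, so its call is not independent of the filter. Gab1 (-1.21 and -1.05, edgeR adjusted p 6.48e-09 and 4.52e-08) and Shc2 (-0.82 and -0.64, edgeR adjusted p 4.65e-06 and 6.50e-05) fell.

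Genes for sortilin's trafficking machinery and ligands were listed beside Sort1. Of 11 tested among 14, 1 rose and 5 fell in WT (54.5% called, beside 56.8% of all genes), and 2 rose and 6 fell in SIRT5F101L (72.7%, beside 60.7%), with medians of -0.16 and -0.23. Lpl, the lipoprotein lipase that sortilin can bind, changed by -1.78 and -1.55 (edgeR adjusted p 6.04e-15 and 4.43e-14). Lrpap1, the receptor-associated chaperone, changed by -0.85 and -0.84 (edgeR adjusted p 3.44e-09 and 3.78e-09). Gga3, an adaptor for Golgi sorting, rose by 0.23 and 0.22 (edgeR adjusted p 0.0346 and 0.0431), with groups that overlapped. The calls of Gga3 were lost without Control replicate 1, 2 or 3, without WT replicate 1 or 2 for WT, and without SIRT5F101L replicate 3 or 4 for SIRT5F101L, with edgeR adjusted p from 0.0556 to 0.157.

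Transcription factors known to act on Bdnf in neurons were taken last. Of 15 listed genes 13 were tested, of which 7 rose and 3 fell in each comparison (76.9% called, beside 56.8% and 60.7% of all genes), with medians of 0.22 in both. Crem, a CRE-binding factor, rose from 11.8 ± 0.948 CPM to 59.8 ± 3.78 and 61.2 ± 4.26 (log2 fold changes 2.34 and 2.37, edgeR adjusted p 2.87e-15 and 2.12e-15). Bhlhe40, a repressor that binds E-boxes, rose 2.30-fold and 2.51-fold (edgeR adjusted p 5.44e-13 and 1.07e-13). Arnt2, a partner of activity-induced factors, changed by -1.56 and -1.31 (edgeR adjusted p 8.06e-10 and 7.65e-09), and Usf1 by -0.28 and -0.43 (edgeR adjusted p 0.00536 and 0.000101). Npas4, an activity-induced factor, lay below the expression filter.

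**Figure D4:**
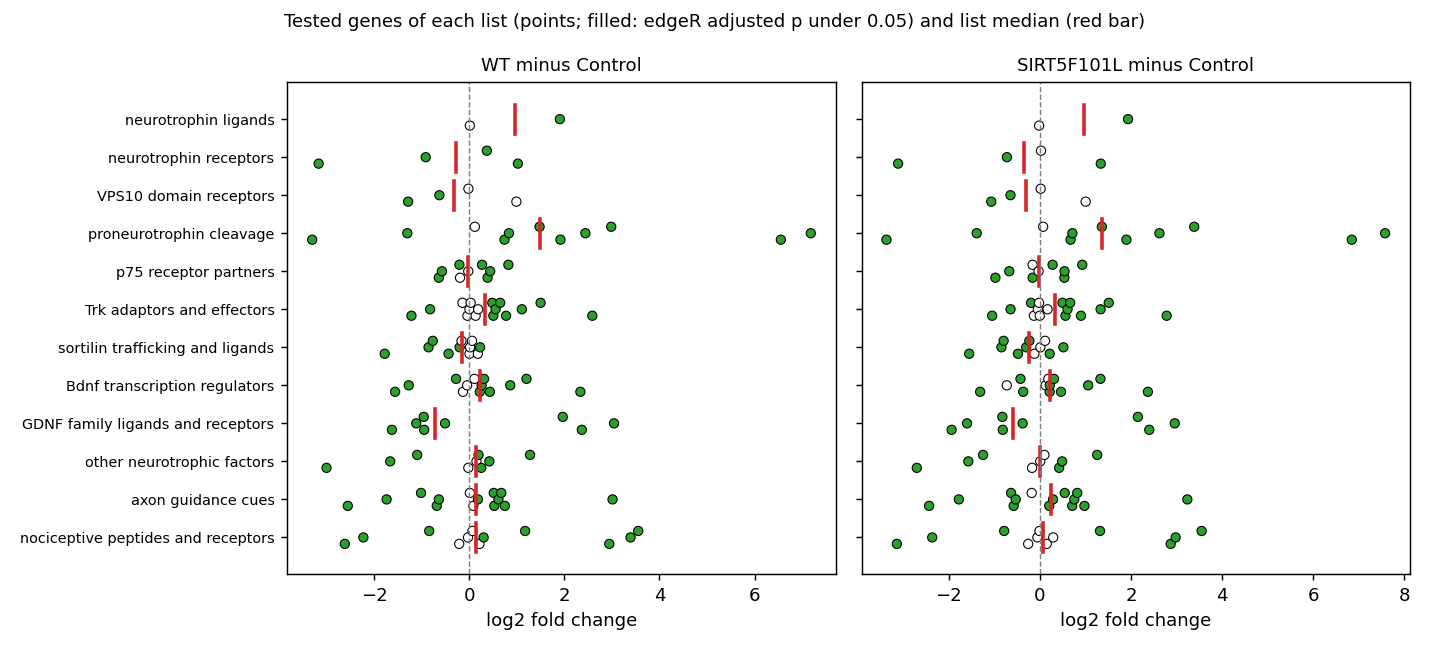
Log2 fold change against Control (horizontal axis) of every tested gene in each of 12 lists (points, filled where the edgeR adjusted p is under 0.05), with the list median (red bar). The median is 1.48 and 1.36 for genes of proneurotrophin cleavage and -0.16 and -0.23 for sortilin trafficking and ligands.

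Over all 12 lists without Bdnf, Ngfr and Sort1, 110 of 140 genes were tested, of which 82 (74.5%) were called in WT, 49 higher and 33 lower, beside 56.8% of all genes. In SIRT5F101L 83 (75.5%) were called, 48 higher and 35 lower, beside 60.7%. These counts include genes, Pcsk1 and Pcsk2 among them, that passed the expression filter only through the libraries where they were high. The lists were also chosen with earlier results of these data known, so the shares carry no test. Between the plasmid groups edgeR called 0 of the 110, and 17 had an unadjusted p under 0.05, where 6 of all 14253 genes (0.0421%) were called, 0.0281% higher and 0.014% lower, and 11.9% had an unadjusted p under 0.05. DESeq2 called 1 of them. Without SIRT5F101L replicate 1, edgeR called 19 of the 112 then tested (17%), beside 2213 of all 14528 genes tested in that fit (15.2%), so the share of listed genes was close to that of all genes, and none of Bdnf, Ngfr and Sort1 was called. Among the named genes those called were Nradd, Mmp3 (0.24), Lpl (0.26), Slit2 (0.31) and Slit3 (0.38), with log2 fold changes of SIRT5F101L against WT in parentheses.

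The genes with profiles most like those of Bdnf, Ngfr and Sort1 over the 12 libraries were found by the root-mean-square difference of log2 CPM, each gene centred on its own mean, among 11542 named genes with at least 1 CPM. For Bdnf they were Slc39a14, a zinc and iron transporter (0.07), Rai14, an actin-associated protein (0.07), and Dusp6, a phosphatase of the kinase ERK (0.07), where the median gene differed by 0.93. Slc39a14 rose from 86.4 ± 6.24 CPM in Control to 312 ± 17.1 and 327 ± 18.1. For Ngfr they were Apip (0.14), an enzyme of methionine salvage, Gjc1 (0.14), a connexin, and Nlrx1 (0.14), a mitochondrial NOD-like protein, against a median of 0.47. For Sort1 they were Zfp560 (0.08), a zinc finger protein, Bloc1s5 (0.11), a subunit of a lysosome-related organelle complex, and Rab28 (0.11), a small GTPase, against a median of 0.40. The 12 libraries fall into 3 groups of 4, so the measure weighs mainly the differences between group means, and it was not tested.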

How the data were processed

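Poly(A) RNA of 12 chondrocyte libraries was sequenced as paired-end reads, per the labels' protocols. The authors deposited raw counts, 1 whole number for each Ensembl gene ID and library. The submitters' processing notes name FastQC 0.11.9, HISAT2 2.2.1, HTSeq 2.0.2, DESeq2 1.38.3 and the build GRCm39. The annotation and strand setting are not given in the sources used here. Of 57010 IDs, 52029 matched a supplied table of symbols. Replicate numbers follow the order of deposition and pair nothing.

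Counts were tested with edgeR 4.0.16 (R 4.3.3): TMM scaling, filterByExpr with the group, then glmQLFit over the 12 libraries together (1 mean for each group, 9 residual degrees of freedom). Benjamini-Hochberg adjustment ran over 14253 genes, 2-sided, at 0.05. The SE is the log2 fold change divided by the square root of F, and 95% intervals use the moderated degrees of freedom. Libraries of 15095357 to 24242139 counts had a biological coefficient of variation of 9.18%. Intervals of counting error ignore PCR duplicates, since no molecular identifiers were used. In simulated counts for each comparison, 200 of 14253 genes were given a 2-fold change, with the same spread for every gene. Of these 200, edgeR recovered 89.9% to 94.9%. Against Control far more genes were called in the data (56.8% and 60.7%), so that recovery need not hold there. Transcript lengths and exon overlaps came from GENCODE M21 (GRCm38), whose build differs from that of the counts, and promoter stretches from RefSeq (GRCm38.p6). Near-identical gene copies were not examined.

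The genes, the 12 gene lists and the 6 marker lists were chosen with earlier results of these data known. Some genes of these lists are not reported here and were left out of the counts. Named were the remaining ligands, p75 and Trk receptors and VPS10 receptors, and in each other list the 2 highest and 2 lowest mean log2 fold changes among genes called in both comparisons with Control at a mean of at least 1 CPM. For likeness of profile the 3 nearest genes were named, leaving out predicted genes. Furin, Pcsk2, Npas4 and Calca were added after their values were seen. Alternatives were RLE and upper-quartile scaling, other filters, a robust prior, DESeq2 1.42.0, fits of 8 libraries, a length trend as offset (loess span 0.5), and leaving out each library in turn.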

Additional observations from a re-analysis of the deposited data

Results flagged for a closer look

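The lowest or highest library of each group was compared with the other 3 with Dixon's outlier ratio, for 43 named genes, in 129 sets of 4. The ratio passed its 95% critical value in 5 sets, where chance gives 6.45, and none of the 5 belonged to Bdnf, Ngfr or Sort1. Sorl1 was at 11.2 CPM in Control replicate 3, against 10.5 to 10.6 in the other Control libraries. Pcsk1 was at 0.0533 CPM in Control replicate 3, its single count, and at 0 in the others. Crem was at 54.8 CPM in SIRT5F101L replicate 4, against 62.8 to 63.7. Ptn was at 72.8 CPM in WT replicate 4, against 60.4 to 62.5. Vegfa was at 229 CPM in SIRT5F101L replicate 1, against 210 to 212.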

How the results depend on the processing

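Against Control, the direction and the call of Bdnf, Ngfr and Sort1 were the same in all 120 fits run under the alternatives. In both comparisons together, log2 fold changes ran from 1.85 to 1.97 for Bdnf, -0.98 to -0.62 for Ngfr and -0.85 to -0.56 for Sort1. The lowest value for Sort1 came with the length trend as offset. Between the plasmid groups none of the 60 fits called any of the 3 genes, and leaving out one library moved Bdnf from -0.00380 to 0.0571 and Sort1 from -0.129 to 0.0659, across 0 in both. Scaled to the library total only, Bdnf averaged 198 CPM in WT and Sort1 8.25 CPM in Control, each moved by more than its SD.

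Between the plasmid groups the count of listed genes called was 3 with no filter, 1 with DESeq2 and 2 with the length trend, and 0 to 19 when one library was left out. The count over all genes was 354 with no filter, 2 with a robust prior, 37 with DESeq2, 20 with the length trend and 2 with 8 libraries, and 0 to 2213 when one library was left out, the highest without SIRT5F101L replicate 1. The cause was not tested. Against Control the listed genes called stayed within 76 to 89 of 110 to 112 tested when one library was left out. These were 68.5% to 79.5% of the listed genes, beside 52.1% to 63.2% of all genes in the same fits. No paired analysis was possible because the labels give no replicate numbers. Depth limits Ntf3 and Sorcs3, which lay below the expression filter.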

Other observations

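Other genes linked to nerve growth and pain were followed in 4 further lists. In the GDNF family, whose ligands signal through a GFRA co-receptor and the kinase Ret, 8 of 11 genes were tested and all were called by edgeR in both comparisons, 3 higher and 5 lower, where 56.8% of all genes were called in WT and 60.7% in SIRT5F101L. Gfra1 rose from 7.08 ± 0.896 CPM in Control to 58.5 ± 2.08 in WT and 55.1 ± 5.75 in SIRT5F101L, and Ret from 3.38 ± 0.490 to 17.5 ± 1.71 and 17.9 ± 1.69 (SD, n = 4). Gfra4 (log2 fold changes -1.62 and -1.94) and the ligand Nrtn (-1.11 and -1.60) fell. Of 9 other neurotrophic factors tested, 4 rose and 3 fell in WT and 3 rose and 3 fell in SIRT5F101L (77.8% and 66.7% called). Ptn (1.28 and 1.26) and Vegfa (0.42 and 0.49) rose, and Mdk, a relative of Ptn (-3.00 and -2.70), and Cdnf (-1.66 and -1.57) fell.

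Of 14 axon guidance cues, all tested, 7 rose and 5 fell in WT and 8 rose and 5 fell in SIRT5F101L (85.7% and 92.9% called, beside 56.8% and 60.7% of all genes). The guidance ligand Slit2 rose from 10.7 ± 1.83 CPM to 86.0 ± 8.26 and 100.4 ± 12.2, and Slit3 by 0.68 and 0.98, while Sema3f (-2.55 and -2.43) and Sema3b (-1.74 and -1.78) fell. Among nociceptive peptides and receptors 12 of 22 were tested, of which 5 rose and 3 fell in WT and 4 rose and 3 fell in SIRT5F101L (66.7% and 58.3% called). The bradykinin receptors Bdkrb2 (3.55 and 3.55) and Bdkrb1 (2.95 and 2.98) rose, and the acid-sensing channel Asic3 (-2.22 and -2.37) and the enkephalin precursor Penk (-0.84 and -0.78) fell, by edgeR at an adjusted p under 0.05. Calca, the precursor of the pain peptide CGRP, was below the expression filter and was picked out after its counts were seen. It had 8, 11, 11 and 10 counts in Control libraries and 0 in each of the 8 plasmid libraries, which allows up to 3 counts in each.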
